A study of Arabidopsis thaliana with 67 samples.

Results

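Chloroplast-encoded genes were described through all 133 rows of the deposited expression table whose identifier starts with ATCG and that hold at least 1 count in any library, out of 60886 rows in all. Each of the 133 rows had a count in at least 1 of the 67 libraries. The libraries came from Arabidopsis thaliana of ecotype Col-0: the wild type, mutants labelled ago5 and ago9, and plants labelled ago59, which are taken to lack both genes. No allele, number of plants per library or promoter of the mCherry reporter is given in the sources used here. ARGONAUTE proteins such as AGO5 and AGO9 use bound small RNAs to silence their targets, and the study asked what they do in the shoot meristem, where the shoot tip keeps its stem cells.

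There were 4 cell populations. Nuclei of shoot apices, taken 7 days after germination from seedlings grown in 16 h light and 8 h dark, gave a stem-cell population (5 wild-type, 8 ago5, 7 ago9 and 7 ago59 libraries) and a non-stem population (3, 3, 4 and 3). A library of this kind was made by a Smart-seq3 protocol from 100 sorted nuclei. Pollen of plants 35 days after germination gave a sperm population (3 libraries of each genotype) and a vegetative population (4, 3, 4 and 4), made by a Smart-seq2 protocol from 2 ng of RNA extracted from nuclei. Protocols differ between seedlings and pollen, so levels in the 2 tissues are set side by side below and were not tested against each other. No label says that libraries came from separate plants, so p-values measure the spread between these libraries only.

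Chloroplasts keep a small circular genome of their own, which encodes subunits of the photosystems and of other photosynthetic complexes, part of the plastid ribosome with its rRNAs and tRNAs, and a plastid RNA polymerase. The nuclear genome encodes a second plastid polymerase, the sigma factors that direct the plastid-encoded polymerase to its promoters, and the ribonucleases that trim and degrade plastid transcripts. Green shoot tissue is rich in chloroplast transcripts, whereas plastids of Arabidopsis pollen do not become green. Chloroplast genes are transcribed inside the plastids. The libraries here were made from nuclei, and the source of their chloroplast counts was not tested.

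The table pairs no ATCG identifier with a gene name. RefSeq's annotation of assembly TAIR10.1 lists 129 chloroplast genes (85 protein-coding, 37 tRNA and 7 rRNA genes) under other identifiers, and 0 of the 133 rows matched one. Products were found for 6 rows, through RefSeq notes on similar nuclear genes: ATCG00430 (photosystem II reaction center protein G), ATCG00530 (a CemA-like proton extrusion protein), ATCG00660 (ribosomal protein L20), ATCG00670 (the plastid-encoded ClpP protease subunit), ATCG00750 (ribosomal protein S11) and ATCG01310 (ribosomal protein L2). All other rows are given by identifier alone, with no role, and the rows could not be split into functional classes. The table gives no gene length, so a share of counts or a CPM value (counts per 1000000 counts of the library) does not rank members by transcript number.

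Library totals, in units of 1000000 counts, were 1.41 to 5.75 for stem-cell, 2.14 to 6.24 for non-stem, 7.16 to 9.49 for sperm and 7.69 to 10.19 for vegetative libraries. The sorts were visible in the marker genes: the 5 stem-cell markers together, CLV3, WUS, STM, KNAT1 and the mCherry row, stood at 116.4 to 408.1 CPM in stem-cell and 3.37 to 50.9 CPM in non-stem libraries. Stem-cell libraries are labelled cherry, so the part of the mCherry row in this sum may follow from the sort itself. The 4 vegetative markers stood at 28508 to 38023 CPM in vegetative libraries and still at 5133 to 11386 CPM in sperm libraries. AGO9 was lower in the ago9 and ago59 libraries of stem cells, sperm and vegetative nuclei (log2 changes from -2.91 to -4.17, largest edgeR adjusted p 0.0142), and AGO5 was lower in sperm libraries of ago5 and ago59 (-4.21 and -3.79). In stem-cell libraries AGO5 was not called lower, either in those labelled ago5 (log2 change -0.42 ± 0.70 SE, adjusted p 0.919) or in those labelled ago59 (-1.05 ± 0.72, adjusted p 0.646), and both overlapped the wild type. Nor was it called in vegetative libraries (adjusted p 0.308 and 0.197), where the wild type stood at 0.745 CPM. The names ago5 and ago59 below are therefore the labels of the libraries. Columns of wild-type pollen carry the number 21 in place of a genotype and were assigned by elimination of the other names, and wild-type pollen values depend on it.

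Many members share reads with another row, and this decided which levels could be compared. The deposited values are expected counts, which divide a read among the rows it could come from. Of the member values in seedling libraries, 33.8% were not whole numbers, against 7.15% of all values in the table. For 10 pairs of members, the fractions of both rows added up to whole numbers, or one row took the other's place from library to library. These 20 partner rows held 50.8% of all chloroplast counts in seedlings. In the RefSeq chloroplast sequence of 154478 bases, an exact inverted repeat of 26264 bases occurs in 2 copies, and 16 annotated genes lie in both copies at mirrored positions: 3 rRNA genes, 7 tRNA genes and 6 protein-coding genes. The gene for ribosomal protein L2 is among the 6, and ATCG01310, annotated as ribosomal protein L2, was the partner of ATCG00830. Which other pairs lie in the repeat was not determined.

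The split of a pair varied far more than its sum. ATCG00830 took from 7.83% to 93.2% of the counts of its pair with ATCG01310 over the 40 seedling libraries, while the sum of both stayed between 5081 and 8492 CPM. ATCG00840 took anything from 0% to 100% of its pair with ATCG01300, whose sum stayed between 401.3 and 768.8 CPM. In pollen the split was nearly all or none. All counts of ATCG00920 and ATCG01210 fell on one row in 27 of 27 pollen libraries, 18 times on ATCG00920 and 9 times on ATCG01210. All counts of ATCG00950 and ATCG01180 fell on one row in 24 of 27 libraries, 12 times on each. A difference in 1 row of a pair is therefore uncertain, and sums of pairs are given wherever a pair matters. Another 10 members shared reads with a row outside the chloroplast genome, among them ATCG00020 with AT2G07688, where 99.6% of the counts of both rows in seedlings stood on ATCG00020, and ATCG00250 with AT3G20362, where 67.9% stood on ATCG00250. The reads shared by such rows were not counted apart.

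**Figure D1:**
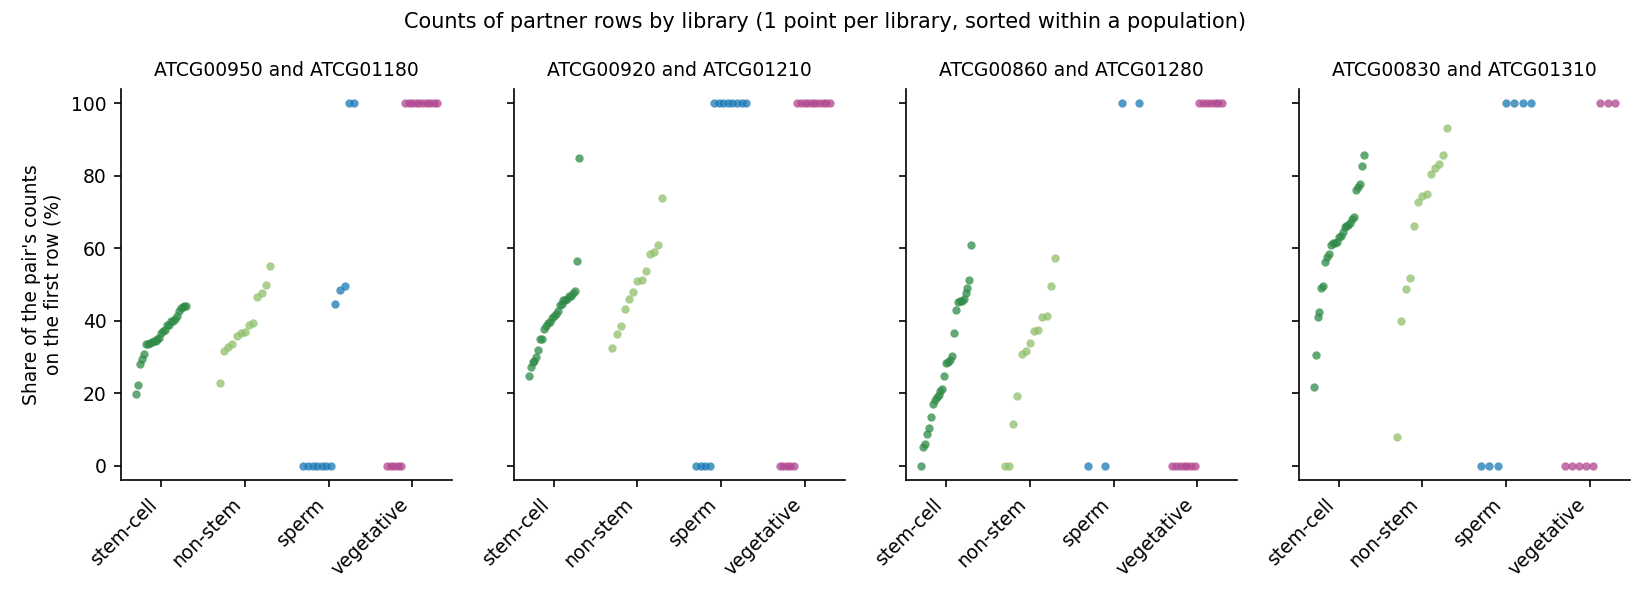
Share of a pair's counts that fell on its first row (vertical axis, %), for 4 partner pairs and 4 cell populations; each point is 1 library with at least 5 counts on the pair, sorted within a population. Seedling libraries spread over intermediate values, and nearly all pollen libraries stand at 0% or 100%.

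Of all counts, 15.9% ± 2.22 (SD, n = 40) fell on chloroplast rows in seedling libraries, and 0.00259% ± 0.00184 (SD, n = 27) in pollen libraries. The lowest seedling library stood at 12.4% and the highest pollen library at 0.00871%, so the tissues were far apart in each library. In counts, the 133 rows held 19195552 counts in seedlings and 5901 in pollen, of which 3854 were in sperm and 2047 in vegetative libraries. A pollen library held 63 to 694 chloroplast counts, spread over 12 to 38 rows, and a seedling library had counts on 115 to 124 rows. Intervals for single libraries (95% Wilson intervals) cover counting error only: the lowest pollen library, at 0.000704%, had an interval of 0.000551% to 0.000901%. The counts in pollen are a base of few reads, and what gave rise to them was not tested.

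Mitochondrial rows, the other set of organelle transcripts, did not follow the chloroplast rows. They took 0.493% ± 0.111 (SD, n = 40) of the counts in seedlings, 2.33% ± 0.634 (SD) in the 12 sperm libraries and 0.0425% ± 0.0469 (SD) in the 15 vegetative libraries. The ratio of chloroplast to mitochondrial counts was 33.6 ± 7.61 (SD) in seedlings, 0.00178 ± 0.00127 (SD) in sperm and, as a range, 0.0147 to 0.102 in vegetative libraries. Markers of green tissue, 8 nuclear genes for Rubisco small subunits, light-harvesting proteins, carbonic anhydrase and Rubisco activase, were high and low with the chloroplast rows across tissues. They summed to 32757 to 76518 CPM in seedling libraries, 197.1 to 399.7 CPM in sperm and 1.65 to 7.93 CPM in vegetative libraries, and 1 of the 4 Rubisco genes, RBCS3B, held nearly all of the sperm value (318.5 ± 57.9 CPM, SD, n = 12). In such pooled nuclei, fewer cells of a type and less RNA per cell cannot be told apart.

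**Figure D2:**
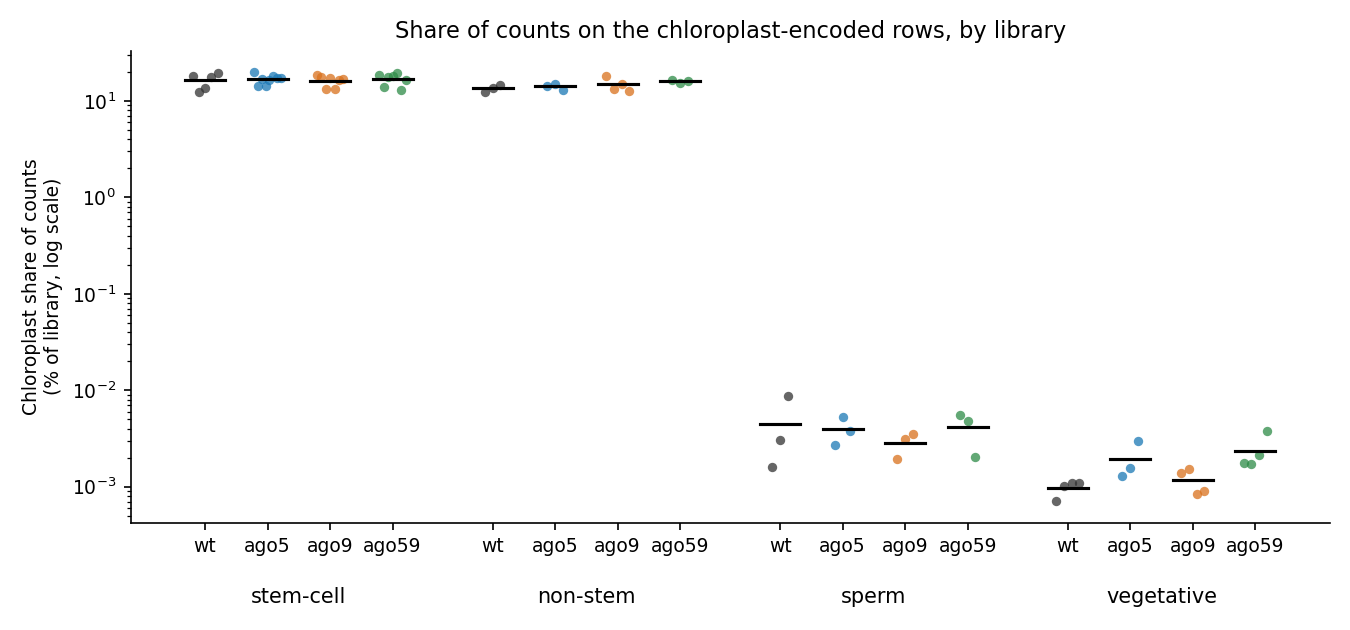
Share of each library's counts on the 133 chloroplast rows (vertical axis, %, log scale) for 4 genotypes in 4 cell populations; points are libraries and bars are group means. Seedling libraries sit between 12.4% and 19.9%, and pollen libraries between 0.000704% and 0.00871%.

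Within seedlings, chloroplast counts were concentrated on few rows. Mean CPM over the 40 libraries was at least 1000 for 31 members, 100 to 1000 for 51, 10 to 100 for 29 and under 10 for 22, and 98 members had a count in all 40 libraries. From 3 to 7 rows made up 50.0% of the chloroplast counts of a seedling library. ATCG01180 was first in stem-cell libraries, with 24.8% ± 3.80 (SD, n = 27) of the chloroplast counts, followed by ATCG00950 with 14.1% ± 3.16. ATCG00040 (5.19% ± 0.488), ATCG01130 (5.11% ± 0.884) and ATCG00020 (4.51% ± 0.643) came next, and these 3 did not differ beyond their spread. The same 5 rows led in non-stem libraries, with 17.9% ± 4.07 (SD, n = 13) for ATCG01180 and 11.2% ± 1.92 for ATCG00950, then ATCG01130, ATCG00040 and ATCG00020 at 6.08%, 5.64% and 5.51%.

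Pollen libraries were led by the same 2 rows, and more strongly. The partner rows ATCG00950 and ATCG01180 together held 57.0% ± 6.16 (SD) of the chloroplast counts in the 12 sperm libraries and 50.1% ± 9.27 (SD) in the 15 vegetative libraries, against 38.9% ± 5.09 (SD, n = 27) in stem-cell and 29.1% ± 3.54 (SD, n = 13) in non-stem libraries. The pair ATCG00920 and ATCG01210 came next, with 660 and 330 counts over all pollen libraries. ATCG00500, with 197 counts, was the first row outside these pairs: it had a count in 12 of 12 sperm and 14 of 15 vegetative libraries. Of the 133 members, 87 had a count in any sperm library and 73 in any vegetative library, and 3 members had one in each of the 12 sperm libraries. For the many rows at 0 in a pollen library, a count of 0 allows up to 3 counts, so low levels were not detectable at this depth.

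Stem-cell and non-stem nuclei differed in the leading pair, while the rest of the chloroplast rows together did not. In the wild type, ATCG00950 and ATCG01180 summed to 41250, 49872, 84189.5, 84507 and 97613 CPM in the 5 stem-cell libraries and to 33065, 46054 and 49348 CPM in the 3 non-stem libraries. Stem-cell libraries fell into 3 high and 2 lower ones; of the lower ones 1 lay among the non-stem values and the other just above them. Over all genotypes the pair took 6.51% ± 1.60 (SD, n = 27) of all counts in stem-cell and 4.30% ± 0.918 (SD, n = 13) in non-stem libraries. The other 131 rows took 10.0% ± 0.885 and 10.4% ± 0.943. The share of all chloroplast rows, 16.5% ± 2.22 against 14.7% ± 1.68 with overlapping ranges, therefore differed mostly by the pair: in the wild type the difference of 2.69 percentage points became 0.125 when the pair was taken out of both the chloroplast counts and the total.

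**Figure D3:**
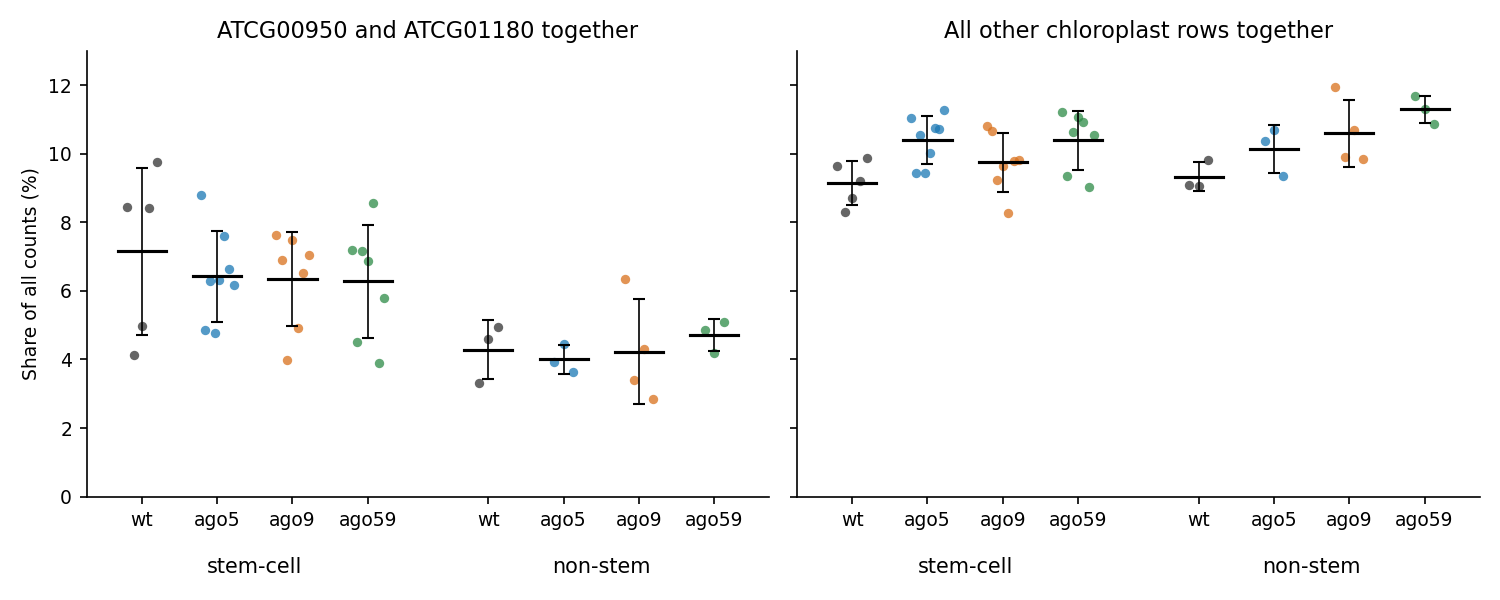
Share of all counts (vertical axis, %) on ATCG00950 and ATCG01180 together (left) and on the other 131 chloroplast rows (right) in seedling libraries; points are libraries, bars are group means and whiskers 1 SD. The pair stands higher in stem-cell than in non-stem libraries (6.51% against 4.30% over all genotypes), and the other rows stand at 10.0% and 10.4%.

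In the edgeR test within the wild type (5 against 3 libraries), 0 of 117 members that passed the filter on low counts were called at an adjusted p under 0.05, where 0.181% of all 17155 features were called. An unadjusted p under 0.05 was reached by 5 members, against 1274 of all 17155 features, and DESeq2 also called 0 members. The summed pair had a log2 difference of 0.80 ± 0.25 (SE) there, with an adjusted p of 0.320. Averaged over the 4 genotypes (27 against 13 libraries), 11 of 122 members tested were called, against 6.93% of all 20753 features. They were 4 higher members (4.06% of all features were called higher) and 7 members lower in stem-cell nuclei (2.87% were called lower). The median log2 difference was -0.0073 over the members tested and 0.06 over all features. Of the 82 members with a mean of at least 100 CPM, 76 differed by less than 0.5 on the log2 scale.

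The summed pair ATCG00950 and ATCG01180 averaged 65057 ± 15998 CPM (SD) over the 27 stem-cell and 42988 ± 9179 CPM (SD) over the 13 non-stem libraries, a log2 difference of 0.62 ± 0.12 (SE, adjusted p 0.000637). As single rows, ATCG01180 differed by 0.66 ± 0.14 (SE, adjusted p 0.0015) and ATCG00950 by 0.57 ± 0.14 (SE, adjusted p 0.00654). With partner rows summed, 10 of 112 were called (6.99% of all features), 3 higher (4.09%) and 7 lower (2.9%). The other 9 pairs gave no call and lay between -0.15 and 0.23. The other 2 rows called higher had mean levels under 25 CPM and standard errors above 1 on the log2 scale. Counts of the 4 nuclear rRNA rows moved with the pair: they took 10.5% ± 2.66 (SD, n = 27) of the counts in stem-cell and 7.80% ± 1.76 (SD, n = 13) in non-stem libraries, and their part in the result was not tested.

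All 7 members called lower in stem-cell nuclei changed little. ATCG01090 stood at 279.1 to 467.0 CPM (mean 374.8) in stem-cell and 372.4 to 630.3 CPM (mean 500.4) in non-stem libraries, a log2 difference of -0.42 ± 0.07 (SE, adjusted p 0.000132). ATCG00670, annotated as a subunit of the Clp protease, which degrades proteins in the chloroplast stroma, stood at 415.6 to 790.1 CPM (mean 607.0) against 590.3 to 921.3 CPM (mean 753.8), a log2 difference of -0.32 ± 0.06 (SE, adjusted p 0.000319). Ranges of both rows overlapped between the populations. The other 5 differed by -0.33 to -0.23. Markers of green tissue were also lower in stem-cell libraries (42296 ± 8290 against 50913 ± 13299 CPM, SD), and their part in these differences was not tested.

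**Figure D4:**
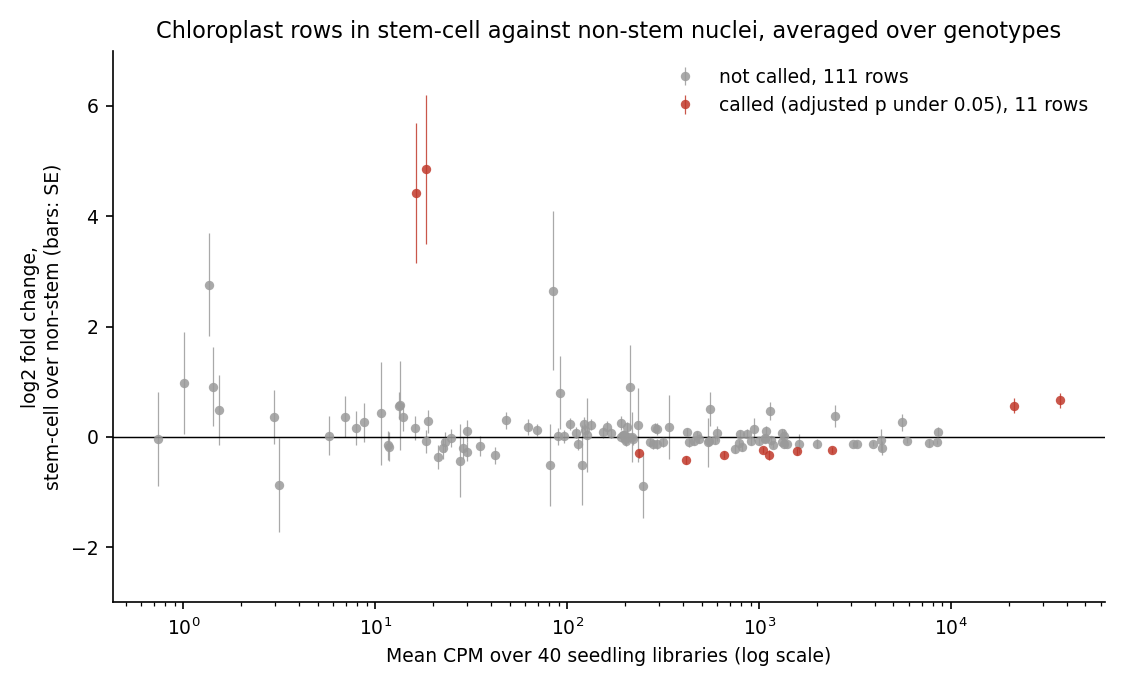
log2 fold change of 122 chloroplast rows in stem-cell over non-stem nuclei, averaged over genotypes (vertical axis, bars are standard errors), against mean CPM over the 40 seedling libraries (horizontal axis, log scale). Called rows are red: the 2 most abundant rows are higher, by 0.66 and 0.57, and the 7 rows called lower lie between -0.42 and -0.23.

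Relative to the chloroplast total instead of all counts, a scaling that asks how the members shifted against each other, 28 of 122 members were called, against 6.75% of all features. In stem-cell nuclei 4 of them were higher (2.46% of all features were called higher) and 24 lower (4.29% were called lower). The median log2 difference of all features is -0.10 under this scaling. ATCG01180 remained higher, by 0.47 (adjusted p 0.000248), and ATCG01090 lower, by -0.59 (adjusted p 4.17e-05). The leading pair is part of the total it is compared with here, so a higher pair lowers the other rows.

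Of the 6 members with a product in RefSeq notes, 5 did not pass the test between the populations. ATCG00660 and ATCG00750, both for proteins of the plastid ribosome, differed by 0.17 ± 0.10 and 0.17 ± 0.09 (SE) on the log2 scale, with adjusted p of 0.353 and 0.294. ATCG00430, at 205.9 ± 38.8 CPM (SD) in stem-cell and 213.3 ± 36.1 CPM in non-stem libraries, differed by -0.0086 ± 0.10 (SE). ATCG00530 differed by -0.07 ± 0.09 (SE). ATCG01310 differed by 0.39 ± 0.20 (SE), but summed with its partner by 0.09 ± 0.07.

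The mutants were compared with the wild type to ask whether loss of AGO5, AGO9 or both changed chloroplast transcripts. In stem-cell nuclei the chloroplast share differed by less than the spread between libraries. The 5 wild-type libraries averaged 16.3% ± 3.07 (SD), the 8 ago5 libraries 16.8% ± 1.91, the 7 ago9 libraries 16.1% ± 2.08 and the 7 ago59 libraries 16.7% ± 2.44. In non-stem nuclei it was 12.4%, 13.7% and 14.8% in the 3 wild-type libraries and 15.5%, 16.0% and 16.5% in the 3 ago59 libraries, which did not overlap. The difference was 2.39 percentage points. Without the leading pair the ago59 libraries also stood higher, at 10.9% to 11.7% against 9.06% to 9.82%. Shares in ago5 (14.1% ± 1.08, SD, n = 3) and ago9 (14.8% ± 2.50, SD, n = 4) overlapped the wild type.

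Nuclear genes for the Rubisco small subunit, whose protein works together with the chloroplast-encoded large subunit in carbon fixation, fell while the chloroplast share did not. The 4 genes RBCS1A, RBCS1B, RBCS2B and RBCS3B took, in the stem-cell population, 4.09% ± 0.271 of the counts in the wild type (SD, n = 5), 2.06% ± 0.179 in the 8 libraries labelled ago5 (SD), 2.27% ± 0.172 in the 7 labelled ago9 and 1.51% ± 0.0701 in the 7 labelled ago59. In non-stem nuclei they took 5.01% ± 0.225 (SD, n = 3), 2.68% ± 0.105 (SD, n = 3), 2.51% ± 0.172 (SD, n = 4) and 1.61% ± 0.129 (SD, n = 3). Each of the 4 genes was called lower in each mutant and both populations (largest adjusted p 0.0124), though near-identical copies leave the values of single genes uncertain. Chloroplast rows showed no such fall common to the mutants, though they leaned lower in ago9 stem-cell nuclei. The median log2 change over the 117 members tested was 0.02 in ago5, -0.11 in ago9 and 0.0015 in ago59 stem-cell nuclei, and -0.02, 0.00028 and 0.12 in non-stem nuclei. Medians over all features tested lay between 0.0013 and 0.04. In ago9 stem-cell nuclei 83 of the 117 changes were negative and 34 positive, while 43 to 61 were negative in the other comparisons of mutants in seedlings.

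Few members were called, from 0 to 3 in a comparison. In stem-cell nuclei 2 of 117 members were called in ago5 (1.33% of all 18633 features were), 0 in ago9 (0.671%) and 2 in ago59 (2.94%). Both were higher in ago5 (0.451% of all features were called higher), and in ago59 1 was higher (0.977%) and 1 lower (1.96%). In non-stem nuclei 0 of 117 were called in ago5 (0.382% of all 18334 features), 0 in ago9 (0.245%) and 3 in ago59 (1.2%), where 2 were higher (0.338%) and 1 lower (0.862%). An unadjusted p under 0.05 was reached by 13, 6 and 12 of 117 members in stem-cell nuclei, against 2031, 1513 and 2277 of all 18633 features. In non-stem nuclei 6, 13 and 18 of 117 reached it, against 1574, 1393 and 1990 of all 18334 features. DESeq2 called 1 member in ago9 stem-cell nuclei and 2 and 4 in ago5 and ago9 non-stem nuclei. The 7 calls fell on 4 rows, ATCG00300, ATCG01130, ATCG00440 and ATCG00720, none of which shares reads with a partner row found here.

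ATCG00300 was higher in mutants. The 5 wild-type stem-cell libraries stood at 518.9, 558.3, 574.9, 578.3 and 588.8 CPM. The 8 ago5 libraries stood at 750.7 to 909.5 CPM (median 853.9), the 7 ago9 libraries at 703.3 to 877.2 CPM (median 825.1) and the 7 ago59 libraries at 730.7 to 884.3 CPM (median 821.6). By CPM no mutant library of stem cells overlapped the wild type. The log2 changes were 0.44 ± 0.11 in ago5 (SE, adjusted p 0.0243), 0.36 ± 0.11 in ago9 (adjusted p 0.164) and 0.39 ± 0.11 in ago59 (adjusted p 0.0412), so the ago9 change was not called. CPM is relative to the library total, while log2 changes carry the scaling of the edgeR fit. On the fitted scale, rises called in mutants are smaller than mean CPM shows (838.2 in ago5, 563.9 in the wild type here). The falls of ATCG00440 are larger on it. Overlap was judged by CPM alone. In non-stem nuclei the wild type stood at 572.1, 640.1 and 659.4 CPM, ago5 at 865.9, 920.4 and 983.2, ago9 at 854.5, 875.2, 908.7 and 914.4, and ago59 at 797.0, 821.3 and 885.0 CPM. Again no library overlapped the wild type, but none of these changes was called (log2 0.43, 0.36 and 0.29, adjusted p 0.289, 0.442 and 0.480). Of 117 members tested, 5, 1 and 6 stood wholly above the wild type in ago5, ago9 and ago59 stem-cell nuclei, and 0, 0 and 1 wholly below. In non-stem nuclei 18, 25 and 35 stood wholly above it, and 2, 7 and 5 wholly below. With so few libraries, non-overlap there says little about a row. Its share over all features was not counted.

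ATCG01130, one of the 5 leading rows of seedlings, was also higher. In stem-cell nuclei the wild type stood at 6268, 6326, 7050, 7198 and 7332 CPM and ago5 at 8527 to 9866 CPM (median 9016), with no overlap. The log2 change in ago5 was 0.29 ± 0.07 (SE, adjusted p 0.0270). It was 0.21 ± 0.07 in ago59 and 0.08 ± 0.07 in ago9, with adjusted p of 0.135 and 0.910. In non-stem nuclei the wild type stood at 6665, 7255 and 7474 CPM and ago59 at 9144, 10023 and 10556 CPM, a log2 change of 0.35 ± 0.08 (SE, adjusted p 0.0351). The ago5 and ago9 non-stem libraries, at 8704 to 9869 CPM, also lay above the wild type, as those of many members did, without a call.

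ATCG00440 was lower in ago59 in both populations. The 5 wild-type stem-cell libraries stood at 3317, 3394, 3442, 3443 and 3455 CPM, and the 7 ago59 libraries at 2436 to 3049 CPM (median 2690). The groups did not overlap, and the log2 change was -0.47 ± 0.09 (SE, adjusted p 0.00151). In non-stem nuclei the wild type stood at 3621, 4169 and 4372 CPM and ago59 at 2382, 2756 and 3445 CPM, a log2 change of -0.63 ± 0.15 (SE, adjusted p 0.0352). The single mutants were not called: log2 changes were -0.25 in ago5 and -0.23 in ago9 in stem-cell nuclei, and -0.35 and -0.38 in non-stem nuclei.

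ATCG00720 was called in ago59 non-stem nuclei alone. It stood at 847.1, 851.4 and 958.2 CPM in the wild type and at 1197, 1842 and 1927 CPM in ago59, a log2 change of 0.77 ± 0.18 (SE, adjusted p 0.0304). In ago59 stem-cell nuclei the change was 0.24 ± 0.15 (SE, adjusted p 0.586). The difference between the populations was tested in its own right and was not called (-0.54 ± 0.25 SE, adjusted p 1.000). In none of the 3 mutants did any of 122 members tested show a called difference of its effect between stem-cell and non-stem nuclei, nor did any of the 20753 features (0% in each mutant). An unadjusted p under 0.05 was reached by 3 members in ago5, 7 in ago9 and 9 in ago59, against 999, 794 and 938 of all features. DESeq2 called 1, 2 and 2 members.

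These calls rest on few libraries. The call of ATCG00440 in ago59 stem-cell nuclei held in 35 of 36 alternatives of processing and libraries left out, and was lost (adjusted p 0.249) relative to the chloroplast total. ATCG00300 was called in 29 of 36 alternatives in ago5 and 24 of 36 in ago59, ATCG01130 in 31 of 36 in ago5, and the 3 non-stem calls in 13 to 17 of 22. Of the 36 alternatives 27, and of the 22 alternatives 13, left out 1 library of any genotype. Those that left out a library of another mutant kept both compared groups whole, so they say little about a call. Without ago5 stem-cell replicate 9 there was no call in ago5, and 1 higher call was left without wild-type stem-cell replicate 7 or 8. Without wild-type stem-cell replicate 4 there was also 1 call, but of a row that was lower, so both calls of higher rows were lost. In ago59 stem-cell nuclei 1 call was left without ago59 replicate 1, 2, 3, 4 or 5 or without wild-type replicate 4, 7 or 8. In ago59 non-stem nuclei there was no call without ago59 replicate 1 or 2, 7 calls without ago59 replicate 3, and 1 call without ago5 replicate 2 or without any 1 of the 3 wild-type libraries. The 3 mutants share their wild-type libraries, so their changes are not independent of each other.

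**Figure D5:**
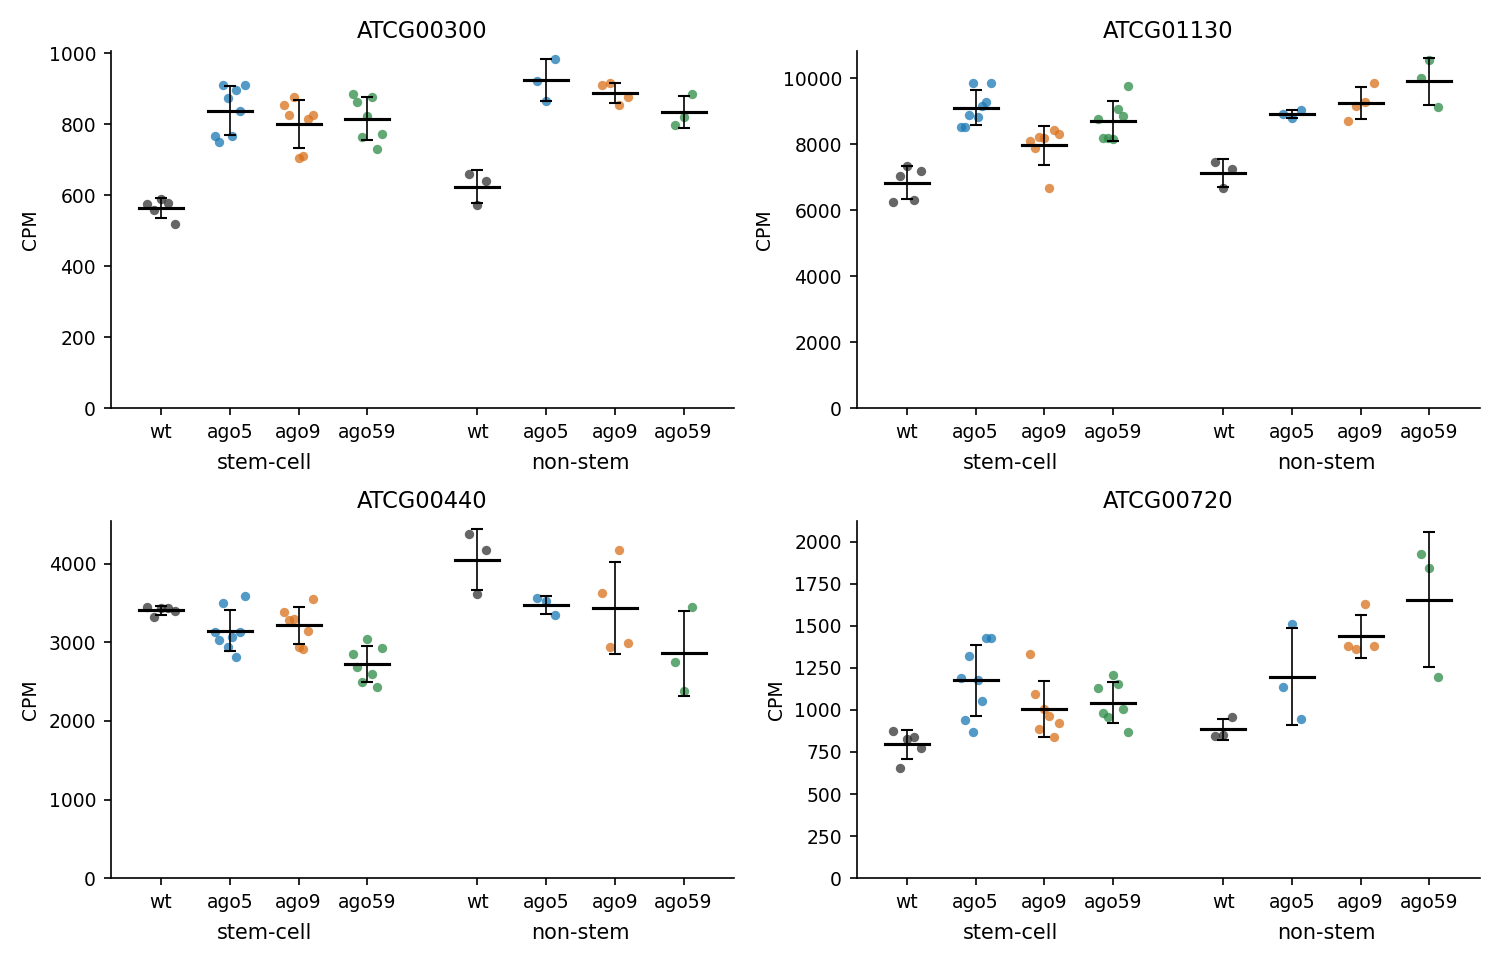
CPM (vertical axes, from 0) of the 4 chloroplast rows called in a mutant, in seedling libraries of 4 genotypes; points are libraries, bars are group means and whiskers 1 SD. ATCG00300 reaches at most 659.4 CPM in the 8 wild-type libraries and at least 703.3 CPM in the 32 mutant libraries, and ATCG00440 is lowest in ago59. CPM does not carry the scaling of the edgeR fit, on which the called rises are smaller.

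In pollen, sperm libraries held more chloroplast counts than vegetative ones. Shares were 0.00160%, 0.00308% and 0.00871% in the 3 wild-type sperm libraries and 0.000704% to 0.00110% in the 4 vegetative libraries, which did not overlap. Over all genotypes the share was 0.00385% ± 0.00200 (SD) in the 12 sperm libraries and 0.00159% ± 0.000850 (SD) in the 15 vegetative libraries, with overlap. Mitochondrial counts were also higher in sperm, and sperm libraries carried vegetative markers, with VGD1 at 4784 to 10768 CPM against 25297 to 34601 CPM in vegetative libraries. The part of both in the result was not tested.

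Few members could be tested in pollen. In the wild type, 3 of 133 passed the filter, and 3 were called, where 91.1% of all 10125 features were. All 3 were higher in sperm, as were 45% of all features. They are 3 single rows of 2 partner pairs (ATCG00920, ATCG00950 and ATCG01180), with large differences between replicates: ATCG00950 stood at 0 in 2 of the 3 sperm libraries, and its direction turned (log2 -7.01) without sperm replicate 3. Without vegetative replicate 2 there was no call, and 1 without vegetative replicate 4. Summed, ATCG00950 and ATCG01180 stood at 9.09, 19.4 and 39.4 CPM in sperm and at 3.45, 4.25, 4.54 and 5.54 CPM in vegetative libraries. The sums did not overlap, with or without sperm replicate 3, and differed by 2.27 ± 0.30 (SE) on the log2 scale (adjusted p 9.44e-07). ATCG00920 and ATCG01210 summed to 2.20, 2.51 and 28.1 CPM in sperm and 0.783 to 2.30 CPM in vegetative libraries, so replicate 3 carried their difference of 2.93 ± 0.65 (SE, adjusted p 0.000356).

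Averaged over genotypes, 9 members were tested and 4 called, all higher in sperm, against 94.6% of all 12025 features called and 46.3% called higher. With partner rows summed, 6 of 8 were called, 5 higher and 1 lower, where 48.3% of all features were called lower. The leading pair stood at 21.5 ± 9.76 CPM (SD) in the 12 sperm libraries and 8.39 ± 5.92 CPM (SD) in the 15 vegetative libraries, a log2 difference of 1.55 ± 0.19 (SE, adjusted p 2.67e-09). ATCG00920 with ATCG01210 differed by 1.95 ± 0.29 (SE, adjusted p 1.67e-07). Another 3 of the 6 reached the level that the filter asks for, 1.15 CPM, in 1 population alone. They passed it only through the population where they stood higher, so their calls are no result. ATCG00500, which belongs to no pair, reached that level in 6 sperm and 0 vegetative libraries and stood at 1.25 ± 0.598 against 0.551 ± 0.292 CPM (SD). ATCG00860 with ATCG01280 reached it in 0 sperm and 7 vegetative libraries and stood at 0.522 ± 0.271 CPM in sperm and 1.17 ± 0.519 CPM in vegetative libraries (SD). ATCG00900 with ATCG01240 reached it in 3 sperm and 0 vegetative libraries. Relative to the chloroplast total, 2 members were called in this comparison, where 93.3% of all features were: ATCG01180 was higher (37.6% of all features were) by 3.02 and its partner ATCG00950 lower (55.7%) by -2.73. Under that scaling the median over all features was -1.48, and ATCG00500 and ATCG00470 turned to -0.18 and -0.31 without a call.

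Within sperm, 0 of 7 members tested were called in any mutant, where 0.0312%, 3.37% and 0.145% of all 9623 features were called in ago5, ago9 and ago59. An unadjusted p under 0.05 was reached by 0, 1 and 1 members, against 432, 1688 and 739 of all features. DESeq2 called 0, 1 and 0 members. Chloroplast shares in mutant sperm, 0.00286% to 0.00413% as group means, overlapped the wild type.

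Within vegetative nuclei the chloroplast share was higher in ago5 and ago59 than in the wild type, without overlap. The wild type stood at 0.000704% to 0.00110% (4 libraries), ago5 at 0.00128%, 0.00156% and 0.00301%, ago59 at 0.00172% to 0.00381% (4 libraries), and ago9, which overlapped, at 0.000836% to 0.00153% (4 libraries). Without the leading pair the ago5 libraries overlapped the wild type (0.000590% to 0.00116% against 0.000279% to 0.000659%), while the ago59 libraries, at 0.000774% to 0.00140%, did not, and the ago59 difference went from 0.00139 to 0.000451 percentage points. In counts the full shares are 63 to 99 chloroplast counts per wild-type library and 155 to 293 per ago59 library. No single row was called: 0 of 6 members tested in each mutant, against 0.0111%, 0.1% and 1.69% of all 8973 features. At an unadjusted p under 0.05 stood 3, 0 and 2 members, against 1023, 531 and 1801 of all features, and DESeq2 called 0 members. ATCG00950 and ATCG01180 summed to 3.45 to 5.54 CPM in the wild type and to 8.64, 9.42, 13.0 and 24.1 CPM in ago59. That pair changed by 1.302 ± 0.34 (SE) on the log2 scale in ago59, just short of a call (adjusted p 0.0513). It changed by 1.03 ± 0.37 (SE) in ago5 (adjusted p 0.309) and 0.19 ± 0.36 in ago9 (adjusted p 0.970). Mean mitochondrial shares were 0.0338% ± 0.0179 in ago59 and 0.0343% ± 0.00936 in the wild type (SD, n = 4 each). Of the ago5 libraries, replicate 4 had the highest mitochondrial share, 0.205%, and the highest chloroplast share, 0.00301%. Of the ago59 libraries, replicate 4 likewise had the highest mitochondrial share, 0.0579%, and the highest chloroplast share, 0.00381%. A link between these shares was not tested. No member showed a called difference of a mutant's effect between sperm and vegetative nuclei (9 tested, with 0%, 0% and 0.00832% of all 12025 features called). An unadjusted p under 0.05 was reached by 1, 2 and 0 members in ago5, ago9 and ago59, against 875, 1339 and 1088 of all features. DESeq2 called 1, 0 and 0 members.

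A list of 25 nuclear genes was set beside the chloroplast rows: sigma factors, the nuclear-encoded polymerases RPOTp and RPOTmp, proteins associated with the plastid-encoded polymerase (PAPs), and ribonucleases and RNA-binding proteins of the chloroplast. All 25 could be tested in seedlings. In stem-cell nuclei, 2 were called lower in ago5 and 1 each in ago9 and ago59, with none higher. Of all 18633 features, 1.33%, 0.671% and 2.94% were called in either direction. Lower were 164, 81 and 365 of them, and higher 84, 44 and 182. CSP41B (AT1G09340), an RNA-binding protein with ribonuclease activity on chloroplast transcripts, had a wild-type level of 401.1 ± 123.9 CPM (SD, n = 5). Its level was 210.1 ± 39.5 in ago5 (SD, n = 8), 235.8 ± 57.5 in ago9 (SD, n = 7) and 222.0 ± 37.6 in ago59 (SD, n = 7). Changes on the log2 scale were -1.05, -0.91 and -0.99, with adjusted p of 6.26e-05, 0.00197 and 0.000129. SIG5 (AT5G24120), a sigma factor that responds to light and stress, fell in ago5 from 87.5 ± 33.3 to 29.0 ± 11.7 CPM (SD), a log2 change of -1.69 ± 0.34 (SE, adjusted p 0.00352). In non-stem nuclei 0 of 25 were called in any mutant. At an unadjusted p under 0.05 stood 3, 2 and 3 of them, against 1574, 1393 and 1990 of all 18334 features. CSP41B changed there by -0.46 in ago5, -0.85 in ago9 and -0.84 in ago59 (adjusted p 0.567, 0.0870 and 0.0622), and its ago9 and ago59 libraries did not overlap the wild type. How many of all features did not overlap there was not counted. The differences of its changes between the populations were not called (adjusted p 0.996 to 1.000). Medians over the 25 genes lay between -0.16 and 0.03 in the 6 seedling comparisons.

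Between stem-cell and non-stem nuclei, averaged over genotypes, 4 of the 25 genes were called, where 6.93% of all features were, and all 4 were lower in stem-cell nuclei (2.87% of all features were). SIG1 (AT1G64860) differed by -0.47 ± 0.10, CSP41A (AT3G63140), a partner protein of CSP41B, by -0.45 ± 0.10, CSP41B by -0.38 ± 0.09 and RPOTp (AT2G24120) by -0.41 ± 0.13 (SE on the log2 scale). The median of the list was -0.22, against 0.06 for all features. The leading chloroplast pair was higher in the same comparison, and a link to these genes was not tested.

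In pollen only 6 to 8 of the 25 genes could be tested. In vegetative nuclei PNP (AT3G03710), the polynucleotide phosphorylase that trims chloroplast transcripts from their 3′ ends, had a wild-type level of 3.17 ± 0.0573 CPM (SD, n = 4). It reached 12.3 ± 1.48 CPM in ago5 (SD, n = 3), 11.7 ± 1.96 in ago9 (SD, n = 4) and 15.9 ± 2.97 in ago59 (SD, n = 4), with no overlap. Changes on the log2 scale were 1.77, 1.80 and 2.00, with adjusted p of 3.59e-06, 1.01e-06 and 1.18e-07. The chloroplast share of ago9, in which PNP also rose, overlapped the wild type, and a link of PNP to the share was not tested. Between sperm and vegetative nuclei, averaged over genotypes, 8 of 8 genes tested were called, 4 in each direction, near the 94.6% of all features. The sigma factor SIG6 (AT2G36990) was lower in sperm (2.49 ± 0.997 against 44.8 ± 6.95 CPM, SD) and RPOTmp (AT5G15700), a polymerase of plastids and mitochondria, was higher (4.11 ± 1.27 against 0.223 ± 0.184 CPM, SD), with log2 differences of -4.10 and 4.27.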

How the data were processed

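The authors deposited 1 table of expected counts per feature, which are estimated counts that need not be whole; that unit was read from the values, since the file has no header that names it. Per the submitters' processing notes the build was TAIR10 and DESeq2 was used; the aligner, the counter, the strand handling and the use of molecular identifiers are not given in the sources used here. No column was left out (0 unused).

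Expected counts were rounded and tested with edgeR 4.0.16 in R 4.3.3: TMM scaling, filterByExpr (minimum count 10, minimum total 15), estimateDisp, glmQLFit and glmQLFTest with no replicate block. P-values were adjusted by Benjamini-Hochberg over all features tested, and features with an adjusted p under 0.05 are called. Every adjusted p in the text is from this test. Wild-type comparisons were fitted on 2 groups, mutants on the 4 genotypes of a population, and averages over genotypes and differences of effects on the 8 groups of a tissue. Standard errors are the absolute log2 change divided by the square root of F. Shares were computed over all features of a library and, as sums over members, carry no test. Shares and CPM are relative to the library total, without the TMM scaling of the fits. Simulated counts with known changes were used to check the procedure.

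Members and gene lists were chosen with earlier results of these data known. Named members are the 5 with the highest mean CPM in a population and called members, at most 2 per direction and comparison where up to 5 had been planned. Since the identifiers carry no names, the planned split by functional class and the members planned by gene name could not be run. Nor could the alternative without chloroplast rRNA rows. The 25 nuclear genes are SIG1 to SIG6, RPOTp, RPOTmp, PAP1 to PAP12, PNP, RNJ, RNR1, CSP41A and CSP41B. Partner pairs were defined after seeing the data: both rows fractional in at least 10 libraries with a whole sum (tolerance 0.0021) in at least 50.0% of them, or one row at 0 in nearly all pollen libraries with counts. No 2 libraries of a group agreed within sampling noise (chi-square per degree of freedom at least 4.13). Deviations of same-numbered libraries correlated by -0.05 to 0.23 on average over a comparison's pairs (highest for vegetative ago5 and wild type), but in no comparison did every pair exceed 0.1, so the numbers were not taken as pairs.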

Additional observations from a re-analysis of the deposited data

How the results depend on the processing

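Over the alternatives that change a setting, 133 counts of called members stayed within 1.5 times the value given and 49 moved. Without the low-count filter, which lets rows with few counts into the test, the counts were 7 and 8 for the wild-type comparisons (stem-cell, sperm), 11, 4 and 12 for ago5, ago9 and ago59 in stem-cell, 3, 10 and 12 in non-stem, 2, 4 and 2 in sperm, and 4 and 2 for ago5 and ago59 in vegetative nuclei. They were 23 and 14 for the averaged comparisons and 6, 4 and 10 (seedlings) and 4, 1 and 1 (pollen) for the differences of effects. DESeq2 gave 0 for wild-type sperm, 4, 1 and 4 in stem-cell, 2, 4 and 5 in non-stem nuclei, 1 for ago9 in sperm, 1, 2 and 2 for the seedling differences of effects and 1 for that of ago5 in pollen. Shares over all features are not given for the runs without the filter or with DESeq2. Scaled to the chloroplast total, the counts were 0 for wild-type sperm, 0 for ago5 and ago59 in stem-cell, 1 for ago59 in non-stem nuclei, 1 for ago9 in sperm, 2 and 4 for ago5 and ago59 in vegetative nuclei, and 28 and 2 for the averages. Under that scaling ATCG00950 in wild-type pollen turned to -0.27, and in the averaged pollen comparison ATCG00500 turned to -0.18, ATCG00470 to -0.31, SIG3 to -1.08 and CSP41A to -0.23 (-0.59 in the wild type). Fits of only the 2 groups gave 0 for ago5 and 1 for ago59 in stem-cell nuclei, and robust quasi-likelihood gave 0 for wild-type sperm. With the replicate block the counts were 6 in wild-type stem-cell against non-stem nuclei, 0 in wild-type sperm, 1 for ago59 in non-stem nuclei and 6 in the averaged seedling comparison, but same-numbered libraries share only a number. Leaving out 1 library gave 0 to 2 calls for wild-type sperm. It gave 0 to 3, 0 to 1 and 1 to 2 for ago5, ago9 and ago59 in stem-cell nuclei. In non-stem nuclei it gave 0 to 1 and 0 to 7 for ago9 and ago59. The averages gave 11 to 12 and 4 to 6 calls, and all other comparisons 0. For averages and differences of effects only wild-type libraries were left out (8 in seedlings, 7 in pollen). How these depend on single mutant libraries was not tested. ATCG00950 in wild-type pollen ranged from -7.01 to 3.11. RLE size factors, scaling without organelle and rRNA rows, and the fit of 8 groups moved no count by over 1.5 times, nor did summing partner rows, which was added after seeing the data. Leaving the leading pair out of the share, also added later, moved the difference of ago59 from the wild type in vegetative nuclei to 0.000451 percentage points and that of wild-type stem-cell from non-stem nuclei to 0.125; the other 12 share differences moved by less than 1 SD. The cause of these changes was not tested.

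Pollen libraries held 63 to 694 chloroplast counts, and 3 to 9 of 133 members could be tested there. In seedlings the median standard error was 0.09 on the log2 scale for members of at least 100 CPM and 0.27 for rarer ones. Expected counts of rows that share reads depend on how the authors' counter divided them.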
